A study of Mus musculus with 8 samples.

Results

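The proteasome subunit genes of the mouse lung were followed across 8 Affymetrix arrays, 2 in each of 4 treatment groups. Members were the probe sets whose only platform gene symbol is Psma, Psmb, Psmc, Psmd or Psme followed by a number, a rule that reads names and no signal. This rule named 53 of 12422 probe sets, from 42 genes. Psmc3ip and Psme3ip1 are among these 42 but are named for an interaction and encode no subunit, which left 51 probe sets of 40 genes. Psmd5, Psmd9 and Psmd10, chaperones of 19S assembly, carry subunit names and were kept. A further 2 probe sets that the platform gives to Psme2 and Psme2b together could not be assigned to a single gene and were not used, so PA28 beta, the partner of Psme1, is not described.

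Mice 3 days old were given oil or retinoic acid, and at day 4 each arm was given saline solution or dexamethasone, a synthetic glucocorticoid. Whole lungs were frozen for total RNA. The group Dex had oil and then dexamethasone, RA had retinoic acid and then saline, and RA-Dex had retinoic acid and then dexamethasone. The labels do not define Dil, which was taken as oil followed by saline because no other arm remained. Replicates are lettered a and b, and nothing says whether these are separate animals, pools or repeat hybridizations. Each p-value of the linear model (limma) rests on the spread of arrays within groups, pooled over the 4 groups and moderated across probe sets. That spread may be technical. No dose, strain or collection time was stated.

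The 26S proteasome degrades proteins tagged with ubiquitin. Its 20S core is a barrel of alpha rings (Psma genes), which gate entry, and beta rings (Psmb genes), which hold the catalytic sites. The 19S cap holds ATPases (Psmc genes), which unfold the substrate, and non-ATPases (Psmd genes), which bind and remove ubiquitin. In the immunoproteasome, which is abundant in leukocytes and induced by interferon in other cells, Psmb8 replaces Psmb5, Psmb9 replaces Psmb6 and Psmb10 replaces Psmb7. The PA28 activator (Psme1 with Psme2) is also interferon induced, whereas PA28 gamma (Psme3) and PA200 (Psme4) are nuclear activators.

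Promoters of the inducible genes and of a constitutive counterpart are shown because the results set these genes side by side. Each window runs 5′ to 3′ from 250 bases before to 50 bases after the annotated start (RefSeq, build GRCm38.p6), and capitals mark matches to the motifs searched.
Psmb9, chr17:34187281-34187580, minus strand: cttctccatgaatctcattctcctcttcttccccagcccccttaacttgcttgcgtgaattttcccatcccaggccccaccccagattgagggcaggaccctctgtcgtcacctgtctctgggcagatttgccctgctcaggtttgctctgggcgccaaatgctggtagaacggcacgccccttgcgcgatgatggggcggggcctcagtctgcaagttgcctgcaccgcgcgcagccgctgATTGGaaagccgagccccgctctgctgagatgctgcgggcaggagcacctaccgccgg
Psmb8, chr17:34197945-34198244, plus strand: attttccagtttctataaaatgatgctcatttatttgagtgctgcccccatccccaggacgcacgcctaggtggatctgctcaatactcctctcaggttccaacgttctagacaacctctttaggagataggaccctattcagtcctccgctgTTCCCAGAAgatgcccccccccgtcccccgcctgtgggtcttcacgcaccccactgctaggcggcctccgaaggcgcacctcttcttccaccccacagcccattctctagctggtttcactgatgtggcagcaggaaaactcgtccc
Psmb10, chr8:105938343-105938642, minus strand: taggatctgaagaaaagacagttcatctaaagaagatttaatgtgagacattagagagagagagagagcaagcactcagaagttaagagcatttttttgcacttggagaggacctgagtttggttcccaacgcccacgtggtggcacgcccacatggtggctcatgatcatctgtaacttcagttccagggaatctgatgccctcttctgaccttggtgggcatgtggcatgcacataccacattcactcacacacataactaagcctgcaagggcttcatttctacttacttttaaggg
Psme1, chr14:55578244-55578543, plus strand: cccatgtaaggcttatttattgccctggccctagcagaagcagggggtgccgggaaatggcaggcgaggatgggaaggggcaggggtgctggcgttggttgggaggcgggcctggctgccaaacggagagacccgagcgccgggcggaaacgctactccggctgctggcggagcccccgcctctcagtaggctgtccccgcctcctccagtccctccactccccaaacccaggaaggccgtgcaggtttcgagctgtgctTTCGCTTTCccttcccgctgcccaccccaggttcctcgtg
Psmb5, chr14:54617946-54618245, minus strand: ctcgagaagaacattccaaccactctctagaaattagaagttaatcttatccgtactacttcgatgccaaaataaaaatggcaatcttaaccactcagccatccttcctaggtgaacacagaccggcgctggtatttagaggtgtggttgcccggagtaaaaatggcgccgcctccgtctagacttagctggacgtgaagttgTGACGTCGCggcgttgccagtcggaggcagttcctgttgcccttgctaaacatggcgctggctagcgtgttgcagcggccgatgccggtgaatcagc
The 5 motifs, searched on both strands, were an interferon response element (GAAANNGAA), an interferon gamma activated site (TTCNNNGAA), a glucocorticoid response core (ACANNNTGT), an antioxidant response element (TGACNNNGC) and a CCAAT box. The capitals are a CCAAT box on the opposite strand at position -8 of Psmb9, an interferon gamma activated site at -97 of Psmb8, an interferon response element at 10 of Psme1 and an antioxidant response element at -47 of Psmb5, counted from the start. The Psmb10 window held 0 matches. Windows were found for 34 of the 40 genes. The antioxidant response element was in 6 of these 34 (17.6%) and in 12.4% of 32851 promoter windows of the same length, and the interferon response element was in 5 (14.7%) against 8.56%. The interferon gamma activated site was in 2 (5.88%, Psmb8 and Psmd2) against 8.3%, and the CCAAT box in 13 (38.2%) against 37.4%. The glucocorticoid response core was in 0 of the 34, against 6.85% of all windows, which says only that these letters are not in these windows. Psmb9 and the peptide transporter gene Tap1 are transcribed away from each other with 225 bp between them, and their windows share 275 bases.

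Signals were given on a linear scale with the same trimmed mean (800.4) on every array. Array medians lay between 316.1 and 341.6, and arrays correlated at 0.945 to 0.965 within groups and 0.913 to 0.964 between groups. The RNA carried lung markers on all arrays, with signals of 61592 to 84336 for Sftpc, the surfactant protein C gene of alveolar type 2 cells. Of 11 lung marker probe sets tested, 2 rose with dexamethasone by limma at an adjusted p under 0.05 (Hopx by 0.62 and Pdpn by 1.15 on the log2 scale, both of alveolar type 1 cells) and 1 fell (Kdr of endothelium, by 0.86). The Pdpn call was lost in 2 of 17 alternative analyses, among them the one without RA-Dex b (1.04). Its log2 values ran from 0.878 to 1.41 over the 17. The part of these markers in the results was not tested. All 5 glucocorticoid response genes tested rose, among them Zbtb16 by 3.97, Fkbp5 by 2.39, Ddit4 by 2.16 and Cdkn1a by 1.94. The summed signal of 25 leukocyte marker probe sets was 43045 to 43884 in Dil, 42368 to 42911 in RA, 30230 to 30634 in Dex and 32620 to 32997 in RA-Dex, so that all dexamethasone arrays were lower. The summed signal of the skeletal muscle and squamous epithelium markers was 11010 to 13751 in Dil and 5677 to 8344 in the other groups, which touches every comparison with Dil. Its part in those results was not tested.

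Most proteasome subunit transcripts changed little after dexamethasone, and the inducible beta subunits and PA28 alpha were at the low end. Of the 51 subunit probe sets, 43 (37 genes) passed a filter on low signal. The 8 that did not were the only probe sets of Psmc4, Psmd2 and Psmd10 and additional ones of Psmb1, Psmb4, Psmc5 and Psme1. Averaged over both day 3 treatments, 3 of the 43 fell (Psmb10, Psme1 and Psmd5) and 0 rose by limma's moderated test at an adjusted p under 0.05, set over all 7309 probe sets tested. Over all of those, 7.83% were called in either direction and 3.57% were lower, so the members' count is near the background. The median log2 fold change was -0.06 over the 43 and -0.03 over all 7309. The 95% interval lay within a 1.5-fold change either way for 30 of the 43 (69.8%) and for 48.3% of all tested.

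These 3 calls were close to the threshold and depended on single arrays. The count was 0 without Dil b, without Dex b, without RA-Dex a or without RA-Dex b, 1 (Psme1) without RA a and 2 (Psmd5 and Psme1) without Dex a. Without Dil a the 2 called were Psmb10 and Psme4, and without RA b they were Psmb10 and Psmc1, where Psme4 and Psmc1 rose. The count was 5 under a stricter filter, which added Psmb8 and Psme4.

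**Figure D1:**
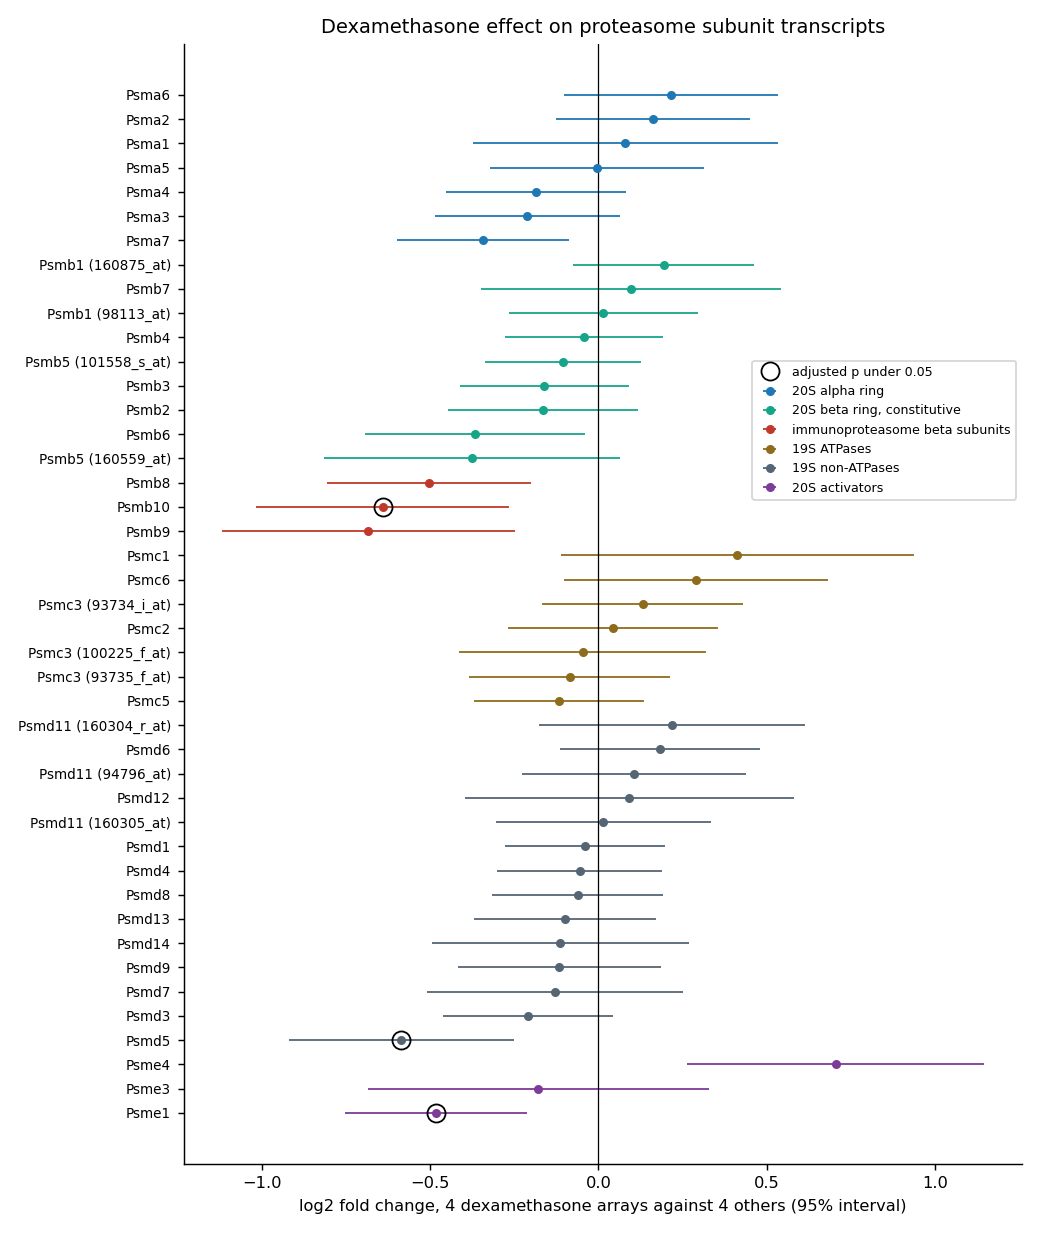
Log2 fold change of the 43 tested subunit probe sets, 4 dexamethasone arrays against the 4 others, with 95% intervals from limma, coloured by place in the complex. The 3 ringed points (Psmb10, Psmd5 and Psme1) had an adjusted p under 0.05, Psme4 lies furthest to the right at 0.70, and the immunoproteasome subunits lie between -0.68 and -0.50.

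The immunoproteasome beta subunits had lower signals with dexamethasone, and 1 of the 3, Psmb10, passed the test. Psmb8, the inducible chymotrypsin-like subunit, had signals of 1326 and 1246 in Dil, 1010 and 866.3 in Dex, 1029 and 976.1 in RA, and 773.6 and 607.4 in RA-Dex. Its dexamethasone arrays were below the matching saline arrays in both arms, while Dex a overlapped RA. With so few arrays per group, such a separation of single groups can arise by chance. Its share over all tested probe sets was not counted. No effect on Psmb8, or on the members and genes below, is read from such a separation alone. The averaged log2 fold change was -0.50 ± 0.14 (SE, 4 arrays against 4; 0.705-fold) with an adjusted p of 0.0504 by limma, just outside the threshold.

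Psmb9, the inducible caspase-like position subunit, had signals of 454.3 and 537.2 in Dil, 386.2 and 354.1 in Dex, 351.7 and 417.4 in RA, and 189.8 and 207.4 in RA-Dex. Both RA-Dex arrays were the lowest of all 8, and the Dex and RA arrays overlapped. The averaged log2 fold change was -0.68 ± 0.20 (0.623-fold), which did not pass (limma adjusted p = 0.062).

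Psmb10, which takes the trypsin-like position, had signals of 1123 and 1579 in Dil, 1135 and 867.4 in Dex, 1580 and 1296 in RA, and 912.1 and 683.5 in RA-Dex. Psmb10 fell by 0.64 ± 0.17 on the log2 scale (0.641-fold, limma adjusted p = 0.0437). Dil a lay slightly below Dex a, so the groups overlapped in the oil arm and separated after retinoic acid. The Psmb10 call was lost without Dil b, Dex a, Dex b, RA a, RA-Dex a or RA-Dex b, with adjusted p between 0.0306 and 0.209 over the 17 alternatives.

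**Figure D2:**
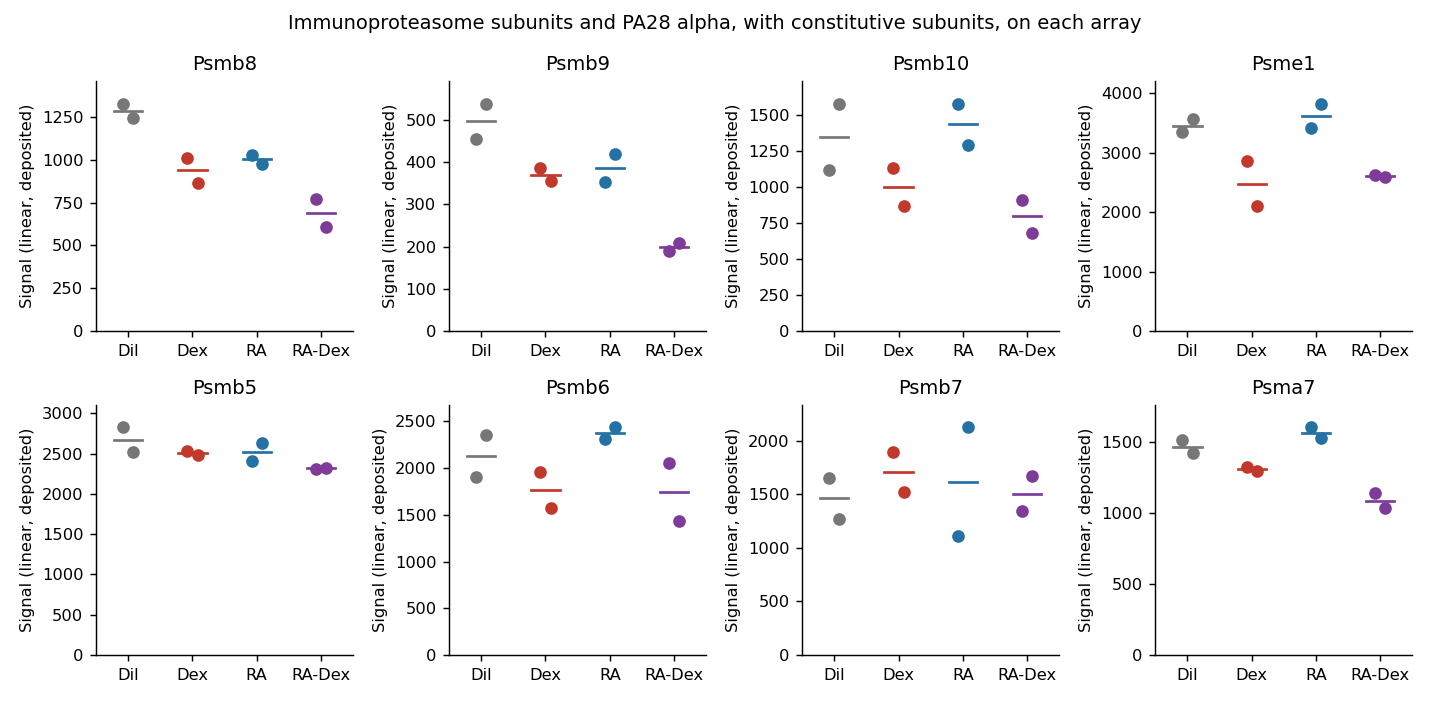
Deposited linear signal on each array by group for the immunoproteasome subunits, Psme1, the constitutive counterparts (Psmb5 by its brighter probe set) and Psma7, with a line at each group's mean of 2 arrays. Psmb8 and Psmb9 are lowest in RA-Dex (607.4 to 773.6 and 189.8 to 207.4), whereas the Psmb5 signals run from 2308 to 2826.

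Leukocyte markers as a set were also lower with dexamethasone. Of 19 leukocyte marker probe sets tested, 8 fell and 0 rose with dexamethasone (limma, adjusted p under 0.05; median log2 fold change -0.51), against 7.83% called of all tested. Cd52, a lymphocyte and monocyte surface antigen, fell by 1.32 ± 0.14 (adjusted p = 0.000172). Tyrobp, a myeloid signalling adaptor, fell by 0.82, Coro1a, a leukocyte actin regulator, by 0.90 and Ighm, the B cell heavy chain, by 0.81 on the same scale. Fewer leukocytes and less RNA per leukocyte cannot be told apart in whole lung, and the part of the leukocyte markers in the immunoproteasome values was not tested. With retinoic acid alone the leukocyte sum was 42368 to 42911 beside 43045 to 43884 in Dil, but single markers within it differed in direction. RA against Dil gave -0.58 for Cd74 and -0.59 for H2-Aa, and 0.89 for Mpeg1 and 0.94 for S100a8, none of them called. A similar sum therefore does not show that leukocyte content was unchanged. The Psmb8 signals in RA were below both Dil arrays. The leukocyte sum was higher in RA-Dex (32620 to 32997) than in Dex (30230 to 30634). Cd74, a bright marker in that sum, was at 7189 and 6380 in RA-Dex and 4953 and 5330 in Dex. RA-Dex against Dex gave -0.45 for Psmb8, -0.90 for Psmb9 and -0.33 for Psmb10 on the log2 scale, none of them called.

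The constitutive counterparts did not pass the test. Psmb5, which carries the chymotrypsin-like site of the standard core, had signals on its brighter probe set of 2826 and 2525 in Dil, 2536 and 2486 in Dex, 2414 and 2632 in RA, and 2308 and 2328 in RA-Dex. This was the narrowest range of any tested member, 1.22-fold from lowest to highest, and the dexamethasone log2 fold change was -0.10 ± 0.11 (95% interval -0.34 to 0.13). Its dimmer probe set gave 667.2 and 711.1 in Dil, 716.7 and 543.8 in Dex, 893.7 and 506.5 in RA, and 422.9 and 458.9 in RA-Dex, a larger value of -0.38 ± 0.20 (limma adjusted p = 0.318). The Psmb5 probe sets share a sign but differ in size.

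Psmb6, the constitutive caspase-like subunit, had signals of 1907 and 2356 in Dil, 1962 and 1573 in Dex, 2311 and 2435 in RA, and 2058 and 1436 in RA-Dex. The arrays overlapped in the oil arm and RA-Dex lay below RA, a separation whose share over all tested was not counted. The log2 fold change was -0.37 ± 0.15 (limma adjusted p = 0.177). Psmb7, the constitutive trypsin-like subunit, had signals of 1657 and 1270 in Dil, 1895 and 1527 in Dex, 1110 and 2126 in RA, and 1343 and 1673 in RA-Dex. Its log2 fold change was 0.10 ± 0.20 (limma adjusted p = 0.842).

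The ratio of each inducible subunit to its counterpart on the same array was compared next, a test chosen after the data were seen. The permutations ran over all 8 arrays and ignored the other treatment, so differences from that treatment stay in the spread. The log2 ratio of Psmb8 to Psmb5 was -1.09 and -1.02 in Dil, -1.33 and -1.52 in Dex, -1.23 and -1.43 in RA, and -1.58 and -1.94 in RA-Dex. It was lower by 0.399 with dexamethasone in the exact permutation test over 8 arrays (SD 0.255 and 0.181, n = 4 each; two-sided p = 0.0571, adjusted over 6 tests 0.171), a difference that did not pass. With the dimmer Psmb5 probe set in its place the difference was -0.127 (exact permutation p = 0.571), so its size rests on the choice of Psmb5 probe set.

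The Psmb10 to Psmb7 ratio differed by -0.738 with dexamethasone (exact permutation p = 0.0857, adjusted 0.171), with -0.654 in the oil arm and -0.822 after retinoic acid. The Psmb9 to Psmb6 ratio differed by -0.316 with dexamethasone (exact permutation p = 0.4, adjusted 0.48). For retinoic acid that ratio was lower on all 4 treated arrays than on the 4 others, by 0.698, at the smallest p that 4 against 4 arrays allow (exact permutation p = 0.0286, adjusted 0.171). The retinoic acid differences for Psmb8 over Psmb5 and Psmb10 over Psmb7 were -0.304 and -0.0636 (exact permutation p = 0.171 and 0.971). No ratio passed after adjustment. A ratio that alone reached the smallest possible p was adjusted to 0.171 over the 6 tests, so it could not pass whatever its size. No conclusion is drawn from the lack of a pass.

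**Figure D3:**
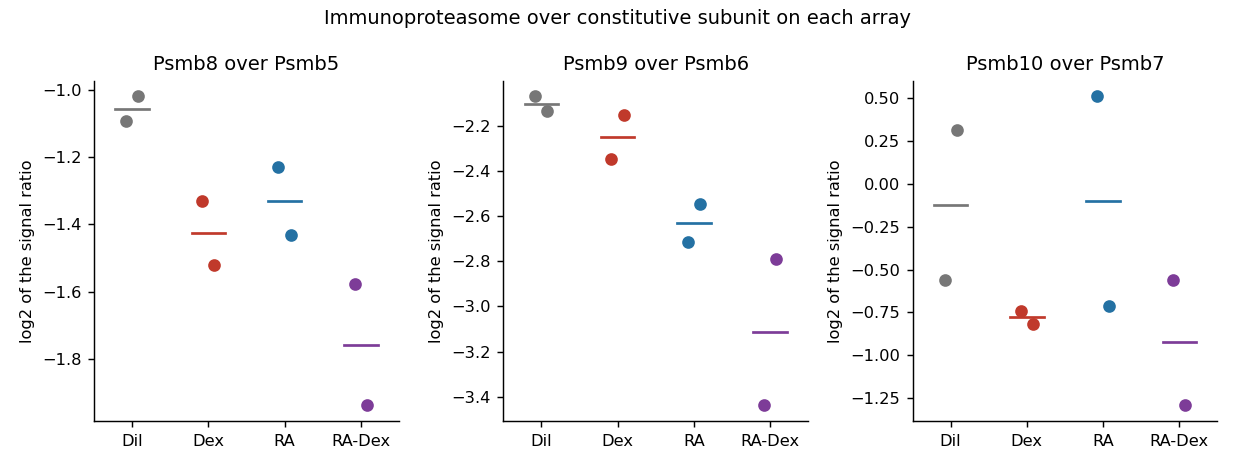
Log2 ratio of the linear signals of each inducible subunit and its constitutive counterpart on each array by group, with a line at each group's mean of 2 arrays; the vertical axes differ and levels are not comparable between panels. Psmb8 over Psmb5 runs from -1.94 to -1.02, and Psmb9 over Psmb6 is lower on the 4 retinoic acid arrays than on the others.

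Among the activators, Psme1 fell and Psme4 had higher signals with dexamethasone. Psme1, the PA28 alpha subunit, had signals of 3342 and 3565 in Dil, 2852 and 2096 in Dex, 3412 and 3821 in RA, and 2631 and 2587 in RA-Dex, with all 4 dexamethasone arrays below the 4 others. Psme1 fell by 0.48 ± 0.12 on the log2 scale (0.716-fold, limma adjusted p = 0.0358). The values were -0.50 in the oil arm and -0.47 after retinoic acid, neither of them called (limma adjusted p = 0.184 and 0.203). The call was lost without Dil a, Dil b, Dex b, RA b, RA-Dex a or RA-Dex b (adjusted p 0.0266 to 0.285 over 17 alternatives). The second Psme1 probe set was below the filter, and a mean over both probe sets gave -0.307 (limma adjusted p = 0.285).

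Psme4, the nuclear activator PA200, had signals of 1138 and 571.3 in Dil, 1382 and 1227 in Dex, 840.5 and 904.8 in RA, and 1294 and 1588 in RA-Dex. All 4 dexamethasone arrays were above the 4 others, and Dil b was far below Dil a. The log2 fold change of 0.70 ± 0.20 (1.63-fold) did not pass (limma adjusted p = 0.0581), and it was 0.95 without Dil a (adjusted p = 0.00465) and 0.46 without Dil b (0.13). Psme3 had signals from 927.2 to 1780, with both Dex arrays below both Dil arrays and overlap between RA-Dex and RA. The share of all tested with that separation of Dex from Dil was not counted. Among the 43 tested, Psme1 and Psma7 were the 2 with all dexamethasone arrays below the others and Psme4 the 1 above, where 7.78% of all tested were below and 6.8% above.

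The alpha ring showed no called change, where 7.83% of all tested probe sets were called. Its 7 tested probe sets ranged from -0.34 (Psma7) to 0.21 (Psma6) in log2 fold change with dexamethasone, with a median of -0.0046, and 6 of the 7 intervals lay within 1.5-fold. Psma7, the alpha 4 subunit, had signals of 1512 and 1418 in Dil, 1322 and 1297 in Dex, 1600 and 1522 in RA, and 1138 and 1034 in RA-Dex. Its dexamethasone arrays did not overlap the others, but the log2 fold change of -0.34 ± 0.12 missed the threshold (limma adjusted p = 0.107). For the other members, Psma1 to Psma6, the 4 dexamethasone arrays overlapped the 4 others. The tested probe sets of Psma3, Psmb4, Psmb7 and Psmd12, some of Psmc3 and the brighter one of Psmb5 carry suffixes that mark possible cross-hybridization. This touches the ratios over Psmb5 and Psmb7. Those of Psmd9, 1 of Psmd11 and 1 of Psmc3 carry suffixes of other kinds.

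The constitutive beta ring held no called member, beside the same 7.83% called of all tested. The 9 tested probe sets of the constitutive beta ring (Psmb1 to Psmb7) ranged from -0.38 to 0.19 in log2 fold change, with a median of -0.10, and 7 of the 9 intervals lay within 1.5-fold. Psmb1 had values of 0.19 and 0.01 on its tested probe sets. Psmb3, an essential non-catalytic subunit, had signals from 4609 to 6212 and a log2 fold change of -0.16.

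In the 19S cap, the 7 tested ATPase probe sets ranged from -0.12 (Psmc5) to 0.41 (Psmc1), with a median of 0.04. Of these, 0 were called, against 7.83% of all tested. Psmc1, the ATPase Rpt2 that helps to open the core's gate, had the widest range of any tested member, 3.13-fold, with RA a the lowest array. Its signals were 1517 and 1611 in Dil, 1993 and 1381 in Dex, 637.1 and 1513 in RA, and 1525 and 1764 in RA-Dex. The probe sets of Psmc3 disagreed in sign, at 0.13, -0.05 and -0.09, all smaller than their errors. Psmc6 had both Dex arrays (5179 and 4712) above both Dil arrays (4266 and 2819), with overlap after retinoic acid. How many of all tested probe sets separated in this way was not counted.

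Of the 14 non-ATPase probe sets tested, 1 fell, Psmd5, where 7.83% of all tested were called. The others ranged from -0.21 (Psmd3) to 0.22 (a Psmd11 probe set), with a median of -0.06 over all 14. Psmd4, a ubiquitin receptor, ranged from 2828 to 3500 (1.24-fold), and Psmd8 had a range of 1.23-fold, among the narrowest. Psmd14, the deubiquitinase of the cap, had signals from 606.6 to 1100 and a log2 fold change of -0.11. Psmd1, the scaffold subunit Rpn2, ranged from 2678 to 3683.

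Psmd5, a chaperone that holds part of the 19S base during its assembly and is not a subunit of the finished particle, was measured by a single probe set. Its signals were 1802 and 2035 in Dil, 2455 and 1552 in Dex, 2971 and 3041 in RA, and 1218 and 1409 in RA-Dex. RA was the highest group and RA-Dex the lowest, while Dex a and Dex b lay on either side of Dil. In RA-Dex against RA, Psmd5 fell by 1.20 ± 0.21 on the log2 scale (fold 0.436, limma adjusted p = 0.0112; 2 arrays against 2). Psmd5 was the only 1 of the 43 called in RA-Dex against RA, where 3.5% of all tested were called and 1.22% were lower.

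In the oil arm the Psmd5 difference was 0.03 ± 0.21 (limma adjusted p = 0.975). The difference between arms was -1.23 ± 0.30, which did not pass over all tested (limma adjusted p = 0.754), so the arms are not shown to differ. RA against Dil gave 0.65 ± 0.21 (limma adjusted p = 0.457). The averaged fall of 0.59 ± 0.15 (0.667-fold, adjusted p = 0.04) is the mean of both arms. It was lost without every array but Dex a (adjusted p 0.0145 to 0.199 over 17 alternatives). The RA-Dex against RA call was lost without RA-Dex a (adjusted p = 0.114) or RA-Dex b (0.0666).

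**Figure D4:**
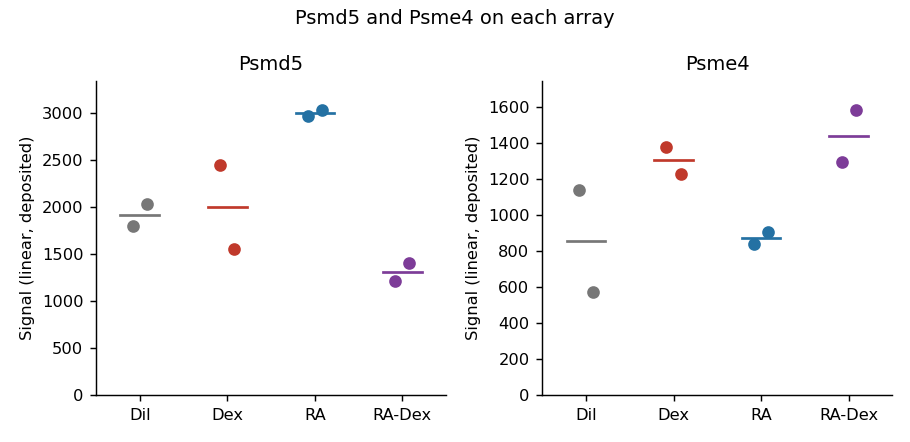
Deposited linear signal of Psmd5 and Psme4 on each array by group, with a line at each group's mean of 2 arrays. Psmd5 is highest in RA (2971 and 3041) and lowest in RA-Dex (1218 and 1409); Psme4 is higher on the 4 dexamethasone arrays (1227 to 1588) than on the others (571.3 to 1138).

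Within the arms, few members passed. In Dex against Dil, 0 of 43 were called by limma, against 3.23% called of all tested. At an unadjusted p under 0.05 there were 5 members (11.6%), against 14.9% of all. Without Dil a, 1 (Psme4) was called. RA-Dex against RA had 8 members (18.6%) at an unadjusted p under 0.05, against 15.8% of all, and without RA b the count was 2 (Psmc1 with Psmd5). Both arms gave lower values for Psmb8 (-0.46 and -0.55), Psmb9 (-0.42 and -0.95) and Psmb10 (-0.42 and -0.86), oil arm first, with limma adjusted p from 0.0886 to 0.562. The interaction of the treatments called 0 of 43, with 0.0137% of all tested called, and 2 members (4.65%) had an unadjusted p under 0.05, against 5.6% of all. Its widest value beside Psmd5 was Psmd12, at -1.12 ± 0.44 (limma adjusted p = 0.859).

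**Figure D5:**
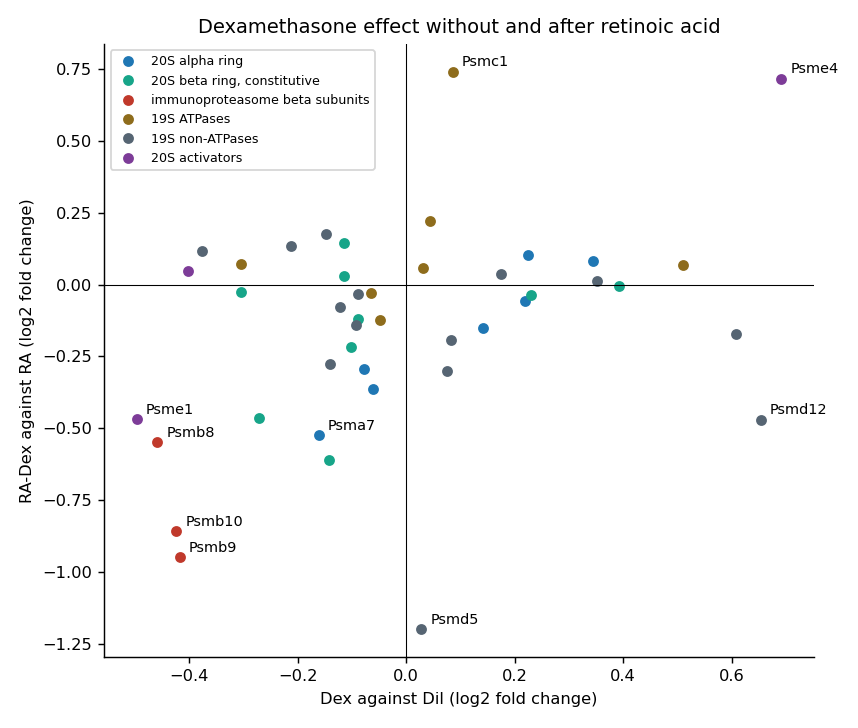
Log2 fold change of the 43 tested subunit probe sets for dexamethasone in the oil arm (horizontal) and after retinoic acid (vertical), coloured by place in the complex. The immunoproteasome subunits and Psme1 lie in the lower left, Psmd5 lies at 0.03 and -1.20, and Psme4 lies at 0.69 and 0.72.

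Retinoic acid itself left no called member. Averaged over the day 4 treatments, 0 of 43 passed (limma), where 0.15% of all tested were called, and 3 (6.98%) had an unadjusted p under 0.05, against 6.29% of all. The median log2 fold change was -0.09 over the members and 4.65e-05 over all tested, and 35 of 43 intervals (81.4%) lay within 1.5-fold, against 61.2% of all. Psmb9 and Psmb8 had the averaged values of -0.63 ± 0.20 and -0.40 ± 0.14 (limma adjusted p = 0.474 and 0.584), while Psmb10 was at -0.11. Psmc5, a 19S ATPase, was at -0.30 ± 0.11 without a call (limma adjusted p = 0.698), and its second probe set was below the filter. RA against Dil and RA-Dex against Dex called 0 of 43 each by limma, where 0.0274% and 0.0958% of all tested were called. At an unadjusted p under 0.05 there were 3 (6.98%) and 4 (9.3%) members, against 7.99% and 4.13% of all.

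The median subunit varied less between arrays than the median tested transcript, a description with no test. The median ratio of highest to lowest array was 1.55 over the 43, 1.73 over all 7309 and 1.68 over the 5563 in the same signal range. The within-group SD, a measure of replicate noise, had medians of 0.202, 0.229 and 0.213 on the log2 scale for these sets. Widest after Psmc1 were Psmb9 (2.83), Psme4 (2.78) and Psmd5 (2.50).

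Genes that act with the proteasome were examined from lists. The assembly factors and partners had 19 probe sets tested with 0 called and a median of 0.01, where 7.83% of all tested were called. Psmg2, a 20S assembly chaperone, had -0.77 ± 0.22 (limma adjusted p = 0.0555). The ubiquitin genes and the activating and conjugating enzymes had 19 tested with 0 called and a median of 0.09. With so few probe sets, both counts are near the share over all tested. Of the 3 atrophy-linked ubiquitin ligases tested, Stub1, a chaperone-linked ligase, fell by 0.43 ± 0.11 (limma adjusted p = 0.0346). This call was lost without Dil a, Dil b, Dex a, Dex b, RA a, RA-Dex a or RA-Dex b (adjusted p up to 0.152).

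Some genes of antigen processing, to which the immunoproteasome supplies peptides, fell with dexamethasone. The list of MHC class I processing genes also held the transcription factor Irf8. Of its 11 probe sets tested, 3 fell (Irf8, Tap1 and H2-D1) and 0 rose, with a median of -0.34. Of all tested, 7.83% were called and the median was -0.03. Irf8, a transcription factor of myeloid and B cells, had signals of 923.4 and 873.9 in Dil, 459.7 and 438.8 in Dex, 1016 and 997.2 in RA, and 486.5 and 420.4 in RA-Dex. It fell by 1.08 ± 0.14 (limma adjusted p = 0.000802), with no overlap between treatments.

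Tap1, the peptide transporter subunit beside Psmb9, had signals of 1078 and 1210 in Dil, 649.4 and 692.8 in Dex, 943.8 and 897.5 in RA, and 616.4 and 567.9 in RA-Dex. Tap1 fell by 0.70 ± 0.13 (limma adjusted p = 0.0078), but a mean over its probe sets gave -0.424 (adjusted p = 0.149). H2-D1 is a class I heavy chain with near-identical relatives that could share its probes. Its values were -0.64 in the oil arm and -0.22 after retinoic acid, neither called (limma adjusted p = 0.0534 and 0.559). Both RA signals (4597 and 5126) were below both Dil signals (6342 and 7045), a separation whose share over all tested was not counted. Averaged over both arms, H2-D1 fell by 0.43 ± 0.11 (limma adjusted p = 0.0373). That call was lost without Dil a, Dil b, Dex a, Dex b, RA b or RA-Dex b (adjusted p 0.0255 to 0.161 over 17 alternatives). B2m, the class I light chain, was at 0.01. The leukocyte marker sums given above were lower with dexamethasone too. The summed signal of the class I list was 33922 to 35360 in Dil and 25645 to 28171 in Dex. It was 24855 to 28468 in RA and 24381 to 26393 in RA-Dex. The RA and Dex sums of this list overlapped. The leukocyte sum was 42368 to 42911 in RA and 43045 to 43884 in Dil, with single markers differing in direction as given above. The part of the leukocyte markers in these values was not tested.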

How the data were processed

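Per the values themselves, the deposited numbers are linear intensity signals, 1 per probe set and array, which the authors had scaled to a common level; no label or header names the software. Symbols come from the platform annotation, updated by Entrez identifier. Signals under the 25th percentile of all values (85.3) were set to it and log2 was taken. The 66 control probe sets were left out, and of the other 12422, the 7309 with a mean log2 signal above the 40th percentile (200.8) were tested. A linear model with 1 mean per group and an intensity trend (limma 3.58.1, R 4.3.3) gave 7 contrasts, with p-values adjusted by Benjamini-Hochberg over all 7309. The number of arrays limits precision (4 residual degrees of freedom). The fit was tested on simulated data.

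Every array value is given for members called in a contrast, for the inducible subunits and their counterparts and for Psme1. Other members are given by range, with examples at either end. From the other lists, up to 4 called genes with the smallest p are named, each by its brightest probe set. Psma7, Psmc1 and Psme4, shown on every array though not called, and Psmc5, Psmc6, Psmd12, Psme3, Psmg2 and B2m were singled out after their values were seen. The rule for members reads names alone. That rule, the lists and the tests were chosen with earlier results of these data known. Alternatives covered scaling, filters, the floor, the variance model, the replicate letter, averaged probe sets and leaving out each array.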

Additional observations from a re-analysis of the deposited data

How the results depend on the processing

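Over the 16 or 17 alternatives run for each, Psmb8, Psmb9, Psmb10, Psme1, Psme4 and Psmd5 kept their direction; the values of the other members under each alternative were not compared. The count of members called for the averaged dexamethasone effect, 3 as reported, was 1 with no filter (Psma7), 5 under a stricter filter at the 60th percentile (508.5), and 1 without the intensity trend (Psmb9). Leaving out 1 array gave 0 to 2 for that count, 0 to 2 for RA-Dex against RA and 0 to 1 for Dex against Dil. RA-Dex against RA, 1 as reported, was 0 with no filter and 0 without the intensity trend, where Psmd5 had adjusted p of 0.133 and 0.0593. The correlations of same-lettered deviations ran from -0.221 to 0.136, so no strong shift was shared by letter. With 2 arrays per group, this cannot show whether the letters pair the arrays. With the letter as a replicate block, the averaged dexamethasone count was 0. Psmb10 lost its call in 12 alternatives, Psme1 in 10 and Psmd5 in 11; Psmb8 gained one in 4 and Psmb9 in 2. The cause of these moves was not tested. The only probe sets of Psmc4, Psmd2 and Psmd10 were left out by the filter, and falls from signals near the floor are cut short.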
